A study of Bos taurus with 54 samples.

Results

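The heat stress response of Holstein male calves was compared between 2 runs of sample numbers, in whole blood libraries of the Takara kit (SMART-Seq v4 3′ DE), which primes on poly(A) tails and reads the 3′ ends of transcripts. The members are all Takara libraries other than that of animal 20, whose sampling time differs between sources, which gave 26 of the 54 libraries of the series and 14 of its 15 animals. A library belonged to run 1 where its sample number was below 200 and to run 2 where it was above 200. Run 1 held 14 libraries of 8 animals, with 7 thermoneutral controls (animals 12, 15, 18, 19, 23, 40 and 41) and 7 taken after heat stress (12, 15, 18, 19, 29, 40 and 41), so that 6 animals had both times. Run 2 held 12 libraries of 6 animals (3, 7, 14, 16, 32 and 36), all with both times. Controls were drawn in the early morning and heat stress samples in the evening after 12 h of heat, so that heat and the hours between the draws cannot be told apart in either run. No treatment other than the heat is given for any group. The labels do not say what set the 2 runs of numbers apart, and the animals, the collection and the handling of the samples cannot be told apart from the run.

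Blood was cleared of red cells by lysis before RNA extraction, so the RNA comes mainly from white cells and platelets. Cells meet heat with chaperones, which refold damaged proteins, and stress hormones act on white cells through the glucocorticoid receptor, which switches on FKBP5, TSC22D3 and related genes. Glucocorticoids also bring mature neutrophils into the circulation, and with them transcripts such as those of S100A8, MMP9 and CXCR2. In bulk blood, more cells of a type and more RNA per cell cannot be told apart. Markers of neutrophils, T cells, B cells, monocytes and platelets were present in every group, with summed neutrophil markers of 5146 CPM (reads on a gene per 1 M reads on genes, with TMM scaling) or more in each library.

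The runs differed in how the reads fell on the genome before any gene was compared. The share of filtered reads that mapped once but outside annotated genes was 13.8% ± 0.71 (SD, n = 7) in the run 1 controls and 18.0% ± 3.81 (n = 7) after heat stress. The groups differed by a two-sided exact permutation test over the libraries, which leaves out the pairing (p = 0.00117), and the share rose in 6 of 6 pairs. In run 2 it was 17.2% ± 2.29 (n = 6) in the controls and 14.0% ± 1.52 (n = 6) after heat stress (exact permutation over libraries, without pairing, p = 0.0260), and it fell in 6 of 6 pairs. The paired change differed between runs by -7.27 percentage points (exact permutation p = 0.00216, the smallest that 924 arrangements allow; 0.0130 after Benjamini-Hochberg adjustment over 6 measures). Ribosomal RNA took 3.87% ± 0.82 and 3.84% ± 1.42 of reads on genes in run 1, and 8.06% ± 2.96 and 3.35% ± 1.48 in run 2 (difference between runs -4.43 points, exact permutation p = 0.0303, adjusted 0.0909). Animal 18 after heat stress stood apart in run 1, with 25.7% of reads outside genes. The run 2 controls of animals 16, 32 and 36 had 46.5%, 47.2% and 42.1% of reads on genes, while all run 1 libraries had at least 52.7%. All gene results therefore stand beside these shares, and their part in the gene results was not tested. Refits with these shares are given with the counts. As the share outside genes moved with heat in opposite directions in the 2 runs, a refit cannot separate it from the run difference.

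**Figure D1:**
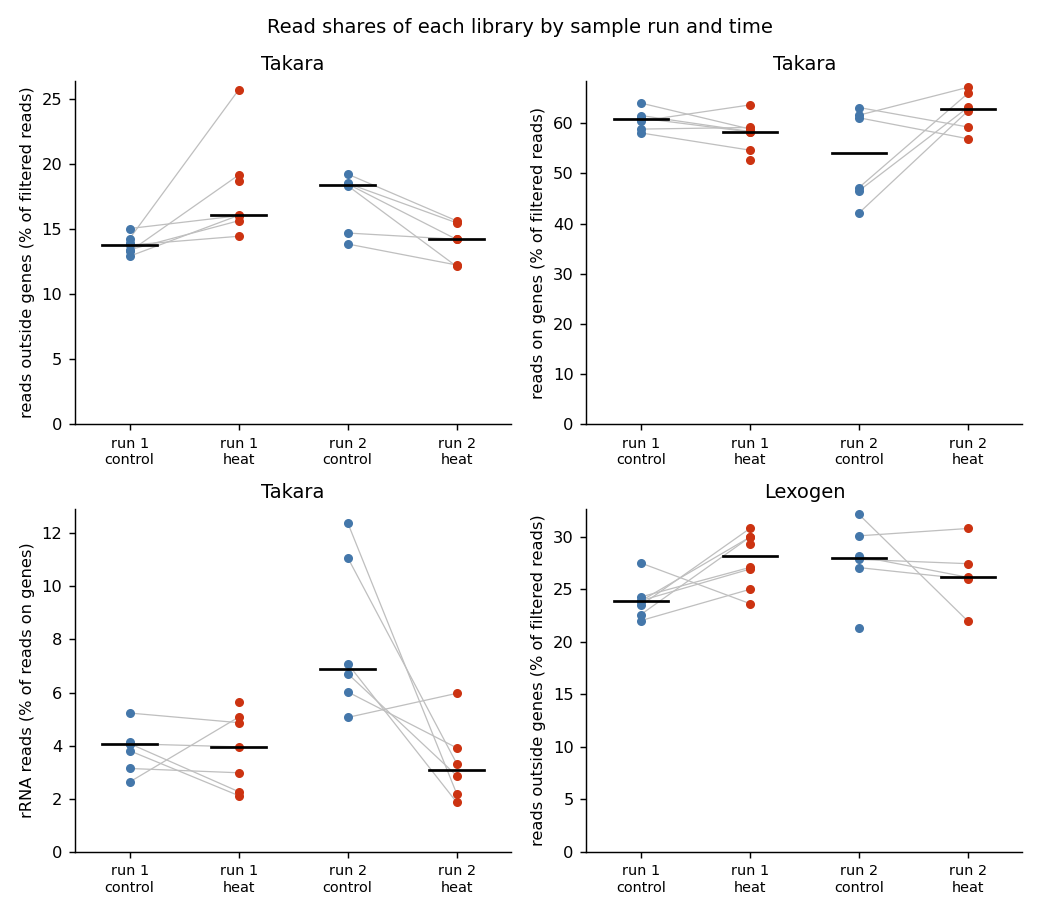
Each point is 1 library, with controls in blue and heat stress in red, grey lines joining libraries of the same animal and black bars at group medians, for the Takara share of reads outside genes, on genes and on ribosomal RNA and for the Lexogen share of reads outside genes, all in percent. The Takara share outside genes lay between 12.9% and 15.0% in run 1 controls and between 13.9% and 19.2% in run 2 controls, and moved up with heat in run 1 and down in run 2.

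Of 13767 genes tested with edgeR's quasi-likelihood test, 312 responded differently in the 2 runs at a Benjamini-Hochberg adjusted p under 0.05, which is 2.27% of the genes. The heat effect was lower in run 2 than in run 1 for 242 genes (1.76%) and higher for 70 (0.508%). Heat stress changed 2574 genes in run 1 (18.7%), with 1843 higher (13.4%) and 731 lower (5.31%), and 1750 genes in run 2 (12.7%), with 1099 higher (7.98%) and 651 lower (4.73%). Both runs called the same direction for 602 genes (4.37%), of which 548 rose (3.98%) and 54 fell (0.392%). For 41 genes (0.298%) the runs were called in opposite directions, 37 of them up in run 1 and down in run 2. Across genes, which are not independent replicates, the log2 fold changes of the runs correlated with Pearson's r = 0.58 and Spearman's rho = 0.43. A run difference had a median standard error of 0.38 on the log2 scale.

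The same animals gave both times in 12 pairs, and a fit with the animal as a block called 171 run differences, 764 genes in run 1, 1122 in run 2 and 78 in both runs. It still called 48.3% of the 242 lower genes, 24.3% of the 70 higher ones and 87.8% of the 41 opposite ones. Scaling by total counts in place of TMM moved the median of all genes to -0.33 in run 1 and -0.15 in run 2 and called 915 genes up and 1308 down in run 1 and 707 up and 489 down in run 2. Counts moved further with the libraries that stood apart. Without the run 2 controls of animals 16, 32 and 36 there were 71 run differences. Without the run 1 heat stress libraries of animals 15, 18 and 29, which had the highest shares outside genes, there were 111. Both refits had smaller groups, so fewer calls do not by themselves mean smaller effects. With the share of reads outside genes as a covariate there was 1 run difference. As that share rose with heat in every run 1 pair and fell in every run 2 pair, this refit cannot separate it from the run difference. Single animals moved the counts too: run differences were 0.847% of genes tested without animal 32, and calls numbered 504 in run 1 without animal 18, 73 in run 2 without animal 36 and 4 in both runs without animal 36.

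**Figure D2:**
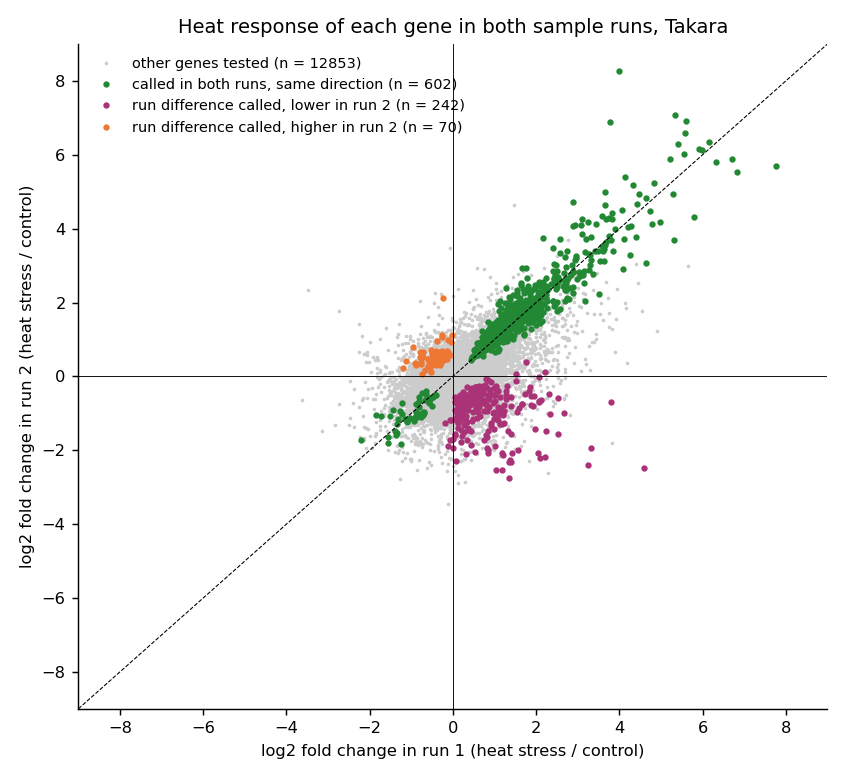
Each point is a gene, with its log2 fold change (heat stress over control) in run 1 on the horizontal axis and in run 2 on the vertical axis. The 602 genes called the same way in both runs lie mostly in the upper right, and the 242 genes lower in run 2 lie mostly where run 1 is above 0 and run 2 below it.

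Genes whose response was lower in run 2 were mostly up in run 1 and down in run 2. Their median log2 fold change was 0.63 in run 1 and -0.77 in run 2, against -0.04 and -0.02 over all genes tested, and 233 of the 242 had opposite signs. As the run difference itself chose these genes, these medians are a description. Run 1 called 124 of them up, run 2 called 147 of them down, and 8 were called in neither run. Run 2 controls were higher than run 1 controls by a median of 0.92, and heat stress libraries were lower by a median of 0.51 (log2 difference -0.51). These 2 differences make up the run difference that chose the genes, so they too are a description.

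MAML2 and MAML3, coactivators of Notch signalling, were among these genes. MAML2, a mastermind-like coactivator that joins the Notch transcription complex (chr15:13888037-14290059 of ARS-UCD2.0), lay in run 1 between 20.01 and 28.6 CPM in the control libraries (median 22.5) and between 38.999 and 51.4 CPM after heat stress (median 46.7). Its run 2 levels lay between 37.05 and 110.4 CPM in the control libraries (median 62.1) and between 16.4 and 33.1 CPM after heat stress (median 28.3). The groups did not overlap in either run, and the directions were opposite, up in 6 of 6 pairs of run 1 and down in all 6 pairs of run 2. Its log2 fold change was 0.98 ± 0.18 (SE) in run 1 (adjusted p = 0.00376) and -1.42 ± 0.20 in run 2 (adjusted p = 0.000582), a run difference of -2.40 ± 0.27 (95% interval -2.95 to -1.86, adjusted p = 2.69e-05). MAML3, its paralogue (chr17:17560715-18020917), ran from 32.1 to 43.1 CPM in the controls and 49.7 to 101 CPM after heat stress in run 1 and from 40.7 to 104 CPM in the controls and 23.2 to 56.1 CPM after heat stress in run 2. MAML3 rose by 0.86 ± 0.19 in run 1 and changed by -0.82 ± 0.21 in run 2 (log2, run difference -1.68 ± 0.28, adjusted p = 0.0023).

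Of the genes with a symbol and a group mean of at least 10 CPM, the most negative difference was that of MBP (chr24:2224135-2328579), which encodes the myelin basic proteins and, in blood cells, the related golli proteins. In run 1, MBP lay between 13.98 and 23.6 CPM in the control libraries (median 20.1) and between 43.1 and 184 CPM after heat stress (median 98.7). MBP levels in run 2 lay between 51.8 and 107 CPM in the control libraries (median 74.97) and between 11.3 and 58.1 CPM after heat stress (median 40.2). The run 1 groups did not overlap and those of run 2 did, with a fall in 6 of 6 run 2 pairs. MBP rose in run 1 (log2 2.34 ± 0.33, adjusted p = 0.00115), and in run 2 the value was -1.01 ± 0.36 (adjusted p = 0.0644, or 0.0389 with the animal as a block), which gave a run difference of -3.35 ± 0.49 (adjusted p = 0.000709).

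IMMP2L, a subunit of the peptidase of the inner mitochondrial membrane and a gene with a span of 961 kb (chr4:56761211-57722694), passed the test in run 2 and not in run 1. It lay between 15.3 and 23.3 CPM in the control libraries (median 16.7) and between 14.4 and 25.8 CPM after heat stress (median 21.4) in run 1, where the groups overlapped. In run 2 it lay between 29.7 and 73.8 CPM in the control libraries (median 46.3) and between 12.01 and 18.6 CPM after heat stress (median 14.4), with no overlap. The log2 fold change was 0.19 ± 0.19 in run 1 (adjusted p = 0.479) and -1.77 ± 0.20 in run 2 (adjusted p = 6.46e-05), and the runs differed by -1.97 ± 0.28 (adjusted p = 0.000538).

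The 18S ribosomal RNA was an abundant transcript that turned direction. RN18S1 (chr27:6224662-6226184) lay between 2123 and 3319.8 CPM in the control libraries (median 2469) and between 3030.5 and 7194 CPM after heat stress (median 4839) in run 1, and between 2532 and 7205 CPM in the control libraries (median 4239) and between 1049.8 and 2991 CPM after heat stress (median 1721) in run 2. Controls and heat stress libraries overlapped in both runs, although all 6 pairs rose in run 1 and all 6 fell in run 2. The log2 fold changes were 0.92 ± 0.24 (adjusted p = 0.0122) and -1.35 ± 0.25 (adjusted p = 0.00576), a run difference of -2.27 ± 0.35 (adjusted p = 0.000826). The share of all ribosomal RNA genes was lower after heat stress in run 2, as given above, but was 3.87% and 3.84% in run 1, where RN18S1 rose. The part of carried-over ribosomal RNA in this level was not tested.

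LYST, BLTP1, SLC15A3, DLST and INSYN2A were also called up in run 1 and down in run 2. LYST, which regulates lysosome trafficking and whose loss causes Chediak-Higashi syndrome, changed by 0.81 ± 0.24 in run 1 and -0.79 ± 0.26 in run 2 (log2, run difference -1.60 ± 0.35, adjusted p = 0.0156). BLTP1, a bridge-like lipid transfer protein, changed by 0.97 and -0.71 (run difference -1.68 ± 0.31, adjusted p = 0.005). The lysosomal peptide transporter SLC15A3 changed by 0.99 and -1.15 (adjusted p of the difference 0.00537). DLST, part of the 2-oxoglutarate dehydrogenase complex, stayed under 10 CPM in all libraries and changed by 1.17 and -1.29 (adjusted p 0.0109). With the animal as a block these 4 run differences stayed called, but LYST was called in neither run, BLTP1 in run 1 alone and SLC15A3 and DLST in run 2 alone, whereas MAML2, MAML3 and RN18S1 kept the calls of both runs. INSYN2A, a gene of inhibitory synapses, was measured at 0.161 to 0.805 CPM in the controls and 0.286 to 3.30 CPM after heat stress in run 1 and at 0.354 to 2.04 CPM in the controls and 0 to 1.15 CPM after heat stress in run 2. Its run difference of -4.29 ± 0.95 (adjusted p = 0.0149, or 0.0577 with the animal as a block) rests on very few reads.

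Most of the other named genes with a lower response in run 2 rose in run 1 alone by the test. CC2D2A, of the base of the cilium, rose by 1.92 ± 0.36 in run 1 and was at -0.79 ± 0.39 in run 2 (run difference -2.72 ± 0.53, adjusted p = 0.00718). KDM5C, a demethylase of histone H3 lysine 4, had 1.39 and -0.56 (adjusted p of the difference 0.00571). For CAPNS2, a calpain small subunit, the values were 2.30 and -0.47 (adjusted p of the difference 0.0391, or 0.0854 with the block). STPG4 was at 2.08 and -0.02 (difference -2.10, adjusted p 0.022, block 0.0606), and the microRNA gene MIR12002B at 1.84 and -0.29 (difference -2.14, adjusted p 0.0358, block 0.0789). FRMD8, which stabilises the machinery that sheds tumour necrosis factor, was at 1.09 and -0.84 (difference -1.92, adjusted p 0.0307, block 0.0907, which also ended its run 1 call). The formin DIAPH2 fell in run 2 (-1.25, adjusted p = 0.0288) and was at 0.92 in run 1, with adjusted p = 0.0219 for the difference and 0.0718 with the block.

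Among 725 tested genes of 32 lists of pathways and cell types, 6 differed between runs (0.828%, against 2.27% of all genes), all of them lower in run 2. CLOCK, a core transcription factor of the circadian clock (chr6:70867167-70978567), lay between 10.2 and 13.3 CPM in the control libraries (median 11.3) and between 7.95 and 18.7 CPM after heat stress (median 14.2) in run 1 and between 17.0 and 23.7 CPM in the control libraries (median 19.1) and between 6.00 and 14.9 CPM after heat stress (median 8.43) in run 2. The run 2 groups did not overlap, and all 6 pairs fell. CLOCK's log2 fold change was 0.28 ± 0.17 in run 1 (adjusted p = 0.248) and -1.10 ± 0.18 in run 2 (adjusted p = 0.00217), with a run difference of -1.38 ± 0.25 (adjusted p = 0.00383). STAT5B, which carries cytokine and growth hormone signals to the nucleus (chr19:42319167-42384915), lay between 24.2 and 37.7 CPM in the control libraries (median 33.1) and between 43.2 and 129 CPM after heat stress (median 83.5) in run 1, without overlap, and between 48.1 and 117.3 CPM in the control libraries (median 65.9) and between 24.4 and 70.7 CPM after heat stress (median 51.3) in run 2, with overlap. It rose in run 1 (1.30 ± 0.27, adjusted p = 0.00542) and was at -0.56 ± 0.29 in run 2 (adjusted p = 0.194), and the run difference was -1.87 ± 0.39 (adjusted p = 0.0115).

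The other 4 genes of the lists lost the call when the animal was a block. EGR1, an immediate early transcription factor near 1 CPM, rose in run 1 (1.20) and was at -1.03 in run 2 (adjusted p of the difference 0.0487, block 0.134). SOCS4, a suppressor of cytokine signalling, was at 0.41 and -0.46 (adjusted p 0.0358, block 0.128). ND5 and ND3 encode subunits of respiratory complex I in the mitochondrial genome. ND5 rose in run 1 (0.63) with -0.33 in run 2 (adjusted p of the difference 0.0126, block 0.0606), and ND3 fell in run 2 (-0.75) with 0.10 in run 1 (adjusted p 0.0472, block 0.116).

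**Figure D3:**
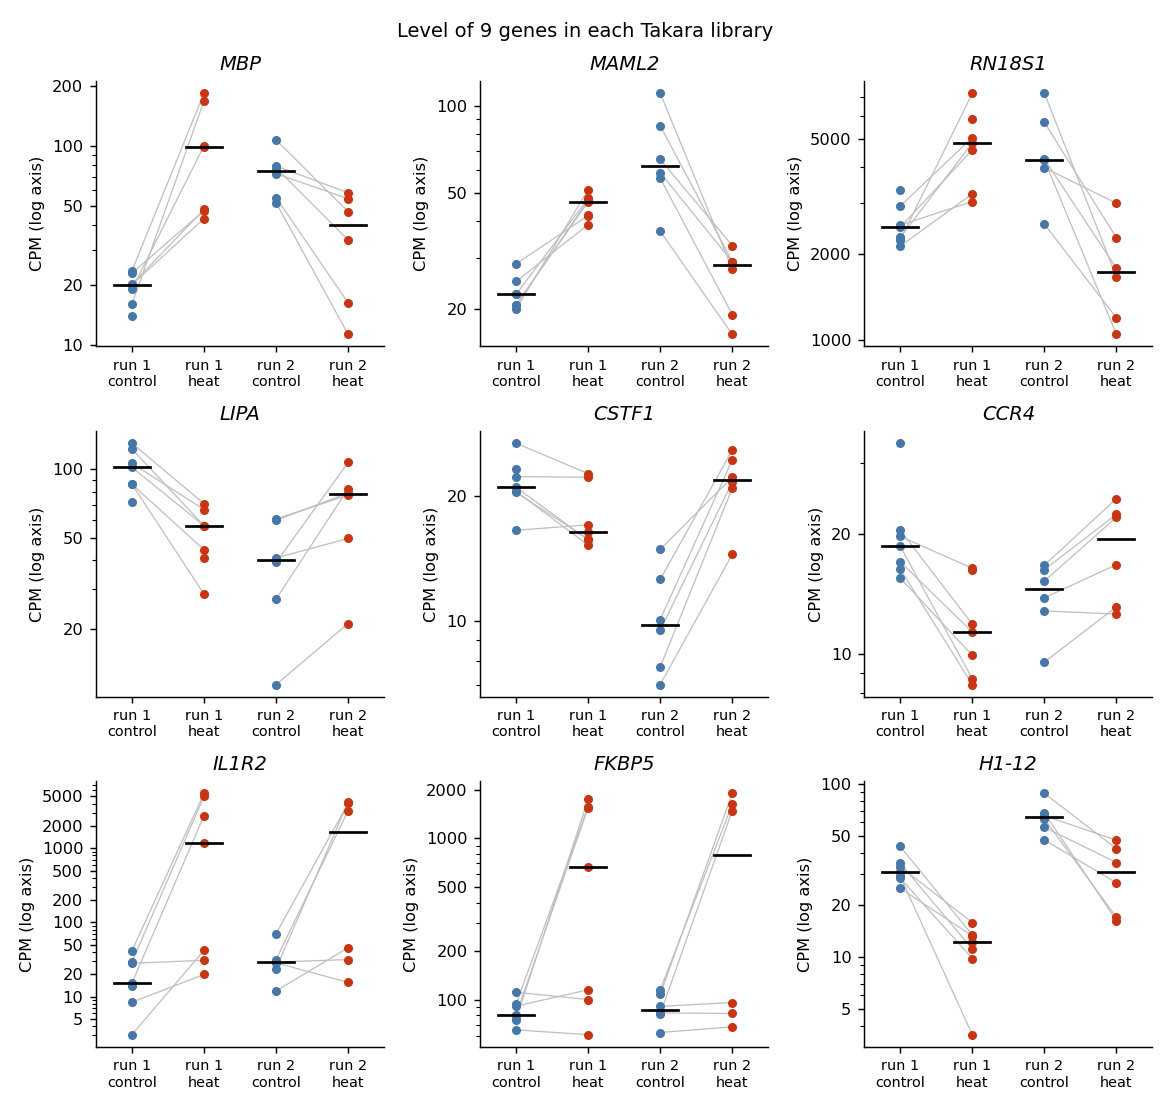
Each point is the level of a gene in 1 library in CPM on a log axis, for 9 genes in the 2 runs, with controls in blue, heat stress in red, grey lines joining libraries of the same animal and black bars at group medians. MBP, MAML2 and RN18S1 moved up in all 6 pairs of run 1 and down in all 6 pairs of run 2, LIPA moved down and then up, and IL1R2 and FKBP5 spread widely after heat stress in both runs.

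Genes with a higher response in run 2 were fewer and their differences smaller, with a median of 0.92 against -1.44. Their median log2 fold change was -0.40 in run 1 and 0.48 in run 2, again as a description of what chose them, and 31 of the 70 fell in run 1 while 37 rose in run 2. Their control level was lower in run 2 than in run 1 by a median log2 difference of -0.58, which is also part of the run difference that chose them.

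The lysosomal enzymes LIPA and NEU1 and the messenger RNA 3′ end factors CSTF1 and CSTF2T were among them. LIPA, the acid lipase of the lysosome (chr26:10952398-11081825), lay between 72.1 and 130.1 CPM in the control libraries (median 102) and between 28.5 and 70.8 CPM after heat stress (median 56.7) in run 1, where the groups did not overlap and all 6 pairs fell. LIPA levels in run 2 lay between 11.5 and 60.7 CPM in the control libraries (median 40.1) and between 21.2 and 107 CPM after heat stress (median 78.0), where the groups overlapped and all 6 pairs rose. LIPA fell in run 1 (log2 -0.95 ± 0.30, adjusted p = 0.0296) and was at 0.80 ± 0.32 in run 2 (adjusted p = 0.0999, or 0.0296 with the block), with a run difference of 1.75 ± 0.44 (adjusted p = 0.0342, block 0.00892). The call of the LIPA run difference was lost when scaled by total counts (adjusted p = 0.05945), with limma's voom (0.0509) and without any 1 of animals 12, 14, 15, 16, 18, 29, 32 and 41, up to 0.113 without animal 32. NEU1, the lysosomal sialidase, was at -0.02 in run 1 and rose by 1.13 in run 2 (adjusted p of the difference 0.0417, block 0.069). CSTF1, a subunit of the cleavage stimulation factor (chr13:59540723-59554646), lay between 16.5 and 26.8 CPM in the control libraries (median 20.96) and between 15.2 and 22.6 CPM after heat stress (median 16.3) in run 1 and between 7.03 and 14.9 CPM in the control libraries (median 9.79) and between 14.5 and 25.8 CPM after heat stress (median 21.9) in run 2. Its groups overlapped in both runs, in run 2 by a narrow margin, and all 6 run 2 pairs rose. CSTF1 was at -0.27 ± 0.16 in run 1 (adjusted p = 0.233) and rose by 1.06 ± 0.18 in run 2 (adjusted p = 0.00217), a difference of 1.33 ± 0.24 (adjusted p = 0.00353). CSTF2T, another subunit of that factor, was at -0.50 and 0.61 (difference 1.11, adjusted p 0.0413, block 0.0838).

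CCR4, STING1, EPB41L3 and C4H7orf25 fell in run 1 and did not pass the test in run 2. CCR4, a chemokine receptor of helper and regulatory T cells (chr22:7306309-7315561), lay between 15.5 and 33.6 CPM in the control libraries (median 18.6) and between 8.41 and 16.4 CPM after heat stress (median 11.4) in run 1 and between 9.57 and 16.7 CPM in the control libraries (median 14.5) and between 12.6 and 24.4 CPM after heat stress (median 19.4) in run 2, with overlap in both runs. CCR4 fell in run 1, with a change of -0.76 ± 0.20 (log2, adjusted p = 0.0136) and was at 0.40 ± 0.22 in run 2 (adjusted p = 0.224), and the difference was 1.16 ± 0.30 (adjusted p = 0.0358), called in 5 of the 14 fits that left out 1 animal. STING1, the adaptor of cytosolic DNA sensing, changed by -0.91 and 0.37 (difference 1.28, adjusted p 0.0414, block 0.107), called in 4 of these fits. The cytoskeletal linker EPB41L3 changed by -0.80 and 0.66 (difference 1.46, adjusted p 0.0212), and C4H7orf25 by -0.88 and 0.30 (difference 1.18, adjusted p 0.00929).

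3 further genes rose in run 2 and did not pass the test in run 1. DEFB7, a beta-defensin that is part of a family of near-identical copies in cattle, lay at 55.3 to 132 CPM in the controls and 29.6 to 174 CPM after heat stress in run 1 and at 8.70 to 37.9 CPM in the controls and 19.8 to 218 CPM after heat stress in run 2. Its difference of 2.34 ± 0.60 (adjusted p = 0.0377, block 0.104) was the largest in this direction, and reads may be shared with its copies. GALNT4, which starts O-linked glycosylation, was at -0.25 and 1.13 (adjusted p of the difference 0.0185, block 0.0851). The amino acid transporter SLC36A4 was at -0.39 and 0.95 (adjusted p 0.0219, block 0.069). In the other direction to MAML2 and MAML3, MTG2, a GTPase of the mitochondrial ribosome, fell in run 1 (-0.73) and rose in run 2 (0.66), with adjusted p = 0.00845 for the difference and 0.0554 with the block.

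The genes lower in run 2 were longer than the rest, which is given as a description. Their median genomic span was 75.7 kb, against 21.5 kb over all genes tested and 13.6 kb for the genes higher in run 2. Protein-coding genes made up 76.0% of them, against 89.5% of all genes tested and 98.6% of the higher set, and long noncoding RNA genes 16.5%, against 8.31%. Among protein-coding genes, the share called lower in run 2 was 0.272% of 3314 genes under 10 kb, 0.914% of 5360 genes from 10 to 50 kb, 2.40% of 1833 genes from 50 to 100 kb, 4.14% of 1472 genes from 100 to 300 kb and 6.21% of 338 genes of 300 kb or more. The share called higher went the other way, from 0.845% under 10 kb to 0 of 338 genes of 300 kb or more. The median run difference over all genes of a bin fell from 0.15 under 10 kb to -0.44 at 300 kb or more. The share of reads outside genes changed between runs in the same direction, up with heat in run 1 and down in run 2, and the part of this share in the pattern by span was not tested.

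**Figure D4:**
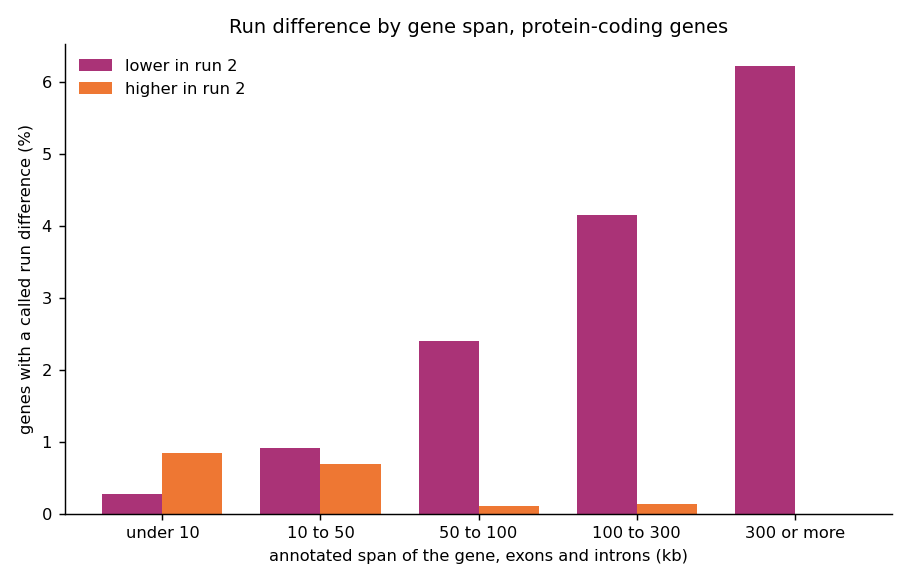
Bars give the percent of protein-coding genes in each bin of genomic span (kb) whose heat response was called lower or higher in run 2 than in run 1. The lower calls climb from 0.272% under 10 kb to 6.21% at 300 kb or more, while the higher calls decline from 0.845% to 0.

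Genes called in both runs included very large responses. IL1R2, the decoy receptor that soaks up interleukin-1 (chr11:6690101-6729069), lay between 3.07 and 41.3 CPM in the control libraries (median 15.2) and between 19.9 and 5479 CPM after heat stress (median 1182) in run 1 and between 11.9 and 70.4 CPM in the control libraries (median 28.9) and between 15.5 and 4162 CPM after heat stress (median 1627) in run 2. After heat stress in run 1, IL1R2 was at 5479 CPM in animal 15, 4986 in animal 40, 2753 in animal 18 and 1182 in animal 29, and between 19.9 and 42.1 CPM in animals 12, 19 and 41. In run 2 it was at 4162 CPM in animal 7, 4030 in animal 36 and 3209 in animal 16, and between 15.5 and 45.6 CPM in animals 3, 14 and 32. Each run held heat stress libraries far above all controls and others near the control range. Its log2 fold change was 6.70 ± 1.06 in run 1 (adjusted p = 0.00502, or 0.0683 with the block) and 5.88 ± 1.14 in run 2 (adjusted p = 0.0131, block 0.142). The run difference of -0.82 ± 1.56 had an interval of -4.02 to 2.38, too wide to say whether the runs were alike.

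FKBP5, a co-chaperone of the glucocorticoid receptor that the receptor itself induces (chr23:9555619-9677831), spread in the same way. Controls lay between 65.1 and 111 CPM in run 1 and between 62.7 and 115.2 CPM in run 2. After heat stress, FKBP5 was at 1741 CPM in animal 15, 1571 in animal 40, 1549 in animal 18 and 666 in animal 29, and between 60.8 and 115.4 CPM in animals 12, 19 and 41 of run 1. In run 2 it was at 1896 CPM in animal 36, 1618 in animal 16 and 1484 in animal 7, and between 68.0 and 96.1 CPM in animals 3, 14 and 32. These are the animals with high IL1R2, and animals 15, 18 and 29 were also those with the highest shares of reads outside genes in run 1. FKBP5 rose by 3.29 ± 0.69 in run 1 (adjusted p = 0.00743, block 0.131) and by 3.28 ± 0.74 in run 2 (adjusted p = 0.0145, block 0.148), and the interval of the run difference was -2.09 to 2.07. Each run held libraries of both kinds.

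BPI and PTX3 also rose in both runs. BPI, a granule protein that kills Gram-negative bacteria, lay at 7.35 to 41.2 CPM in the controls and 16.4 to 2499 CPM after heat stress in run 1 and at 11.02 to 37.6 CPM in the controls and 16.5 to 2754 CPM after heat stress in run 2, with log2 fold changes of 5.22 and 5.89 (adjusted p = 0.00674 and 0.0101, block 0.152 and 0.109). PTX3, a soluble pattern recognition protein, had 6.33 and 5.80 (adjusted p = 0.00596 and 0.0144, block 0.0859 and 0.137). The other named genes that rose in both runs were the protease inhibitor SERPINB4 (5.90 and 6.16), CREG2 (7.77 and 5.71), the zinc finger gene BNC2 (5.55 and 6.01), the anion transporter SLC26A8 (6.83 and 5.54) and the beta-defensin DEFB4A (5.41 and 6.28). Under the block, BNC2 kept both calls, CREG2 and SLC26A8 kept that of run 1, and SERPINB4 and DEFB4A kept neither.

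4 of the 7 named genes that fell in both runs encode histones. H1-12, a linker histone (chr23:31769993-31771607), lay between 24.97 and 43.6 CPM in the control libraries (median 30.97) and between 3.54 and 15.8 CPM after heat stress (median 12.2) in run 1 and between 47.6 and 88.5 CPM in the control libraries (median 64.3) and between 16.2 and 47.4 CPM after heat stress (median 30.98) in run 2, with no overlap in either run. H1-12 changed by -1.52 ± 0.25 and -1.07 ± 0.27 (log2, adjusted p = 0.00275 and 0.0155), and its run difference was 0.45 ± 0.37 (interval -0.31 to 1.20). H2AC8 changed by -1.73 and -1.08, H2BC12 by -1.10 and -1.23 and H2AC4 by -1.11 and -1.21. Histone genes have near-identical copies, so their counts may be split between them. As the kit primes on poly(A) tails, histone transcripts without such a tail would be missed, and their share was not tested. The F-box gene FBXO24 changed by -1.56 and -1.63, ADIRF by -1.40 and -1.47 and TEX14 by -1.15 and -1.15. With the block, TEX14 lost both calls and H2AC4 that of run 1.

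A response was taken as alike where both runs called the same direction and the 95% interval of the run difference stayed within a 2-fold change. This held for 124 genes (0.901%), of which 99 rose and 25 fell, while the interval was that narrow for 4927 genes (35.8%) whether or not they responded. None of the 15 genes named above for the largest changes in both runs was among them. Of the alike genes, some with large changes are given here, chosen after their values were seen. BANP, a nuclear matrix protein, lay at 26.1 to 35.7 CPM in the controls and 37.6 to 100.5 CPM after heat stress in run 1 and at 19.4 to 35.01 CPM in the controls and 38.7 to 83.0 CPM after heat stress in run 2, and rose in 6 of 6 pairs of each run, by 1.23 ± 0.20 and 1.21 ± 0.22 (interval of the difference -0.64 to 0.60). CEP19, a centrosome protein, rose by 1.44 and 1.44 (-0.96 to 0.97), and the glycolytic enzyme ALDOA by 1.11 and 1.08 (-0.95 to 0.88). The proapoptotic BBC3 rose by 1.18 and 1.13, the splicing kinase CLK1 by 1.07 and 1.01, and the P-selectin ligand SELPLG by 1.15 and 1.16. With the block, ALDOA and BBC3 lost the calls of both runs and SELPLG that of run 1. SEC14L2, a lipid-binding protein, fell by similar amounts, -1.03 and -1.13 (-0.97 to 0.76).

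The chaperones rose in part and with 1 library far above the others. Of 40 genes of the list, 9 rose and 2 fell in run 1 and 5 rose in run 2, where 13.4% of all genes rose in run 1 and 7.98% in run 2, with median log2 fold changes of 0.19 (-0.11 when scaled by total counts) and 0.21, and 0 differed between runs. Over all genes, the run with more calls depended on the processing. The share of reads outside genes as a covariate left 2 genes called in run 1 and 1734 in run 2. The ribosomal RNA share left 3154 and 0. The chaperone counts therefore do not show in which run more of these genes responded. HSPA1A, the inducible HSP70 (chr23:27520317-27522790), lay between 17.1 and 36.3 CPM in run 1 controls and between 15.9 and 41.5 CPM in run 2 controls. After heat stress it was at 1024 CPM in animal 18 and between 38.1 and 117.7 CPM in the other 6 libraries of run 1, and between 29.4 and 115.9 CPM in run 2. All 6 pairs rose in each run. HSPA1A rose by 3.10 ± 0.58 in run 1 (adjusted p = 0.00502), or by 1.42 without animal 18 (adjusted p = 0.0341), and was at 1.23 ± 0.63 in run 2 (adjusted p = 0.201, or 0.0219 without animal 18). Its run difference of -1.87 ± 0.85 did not pass the test (adjusted p = 0.275). HSPH1 rose in both runs (1.45 and 1.02, adjusted p = 0.00421 and 0.0271), HSP90AA1 rose in run 1 (1.67) with 0.80 in run 2, and DNAJB1 was at 0.63 and 0.37 with neither called. Of the cold-inducible RNA-binding proteins, RBM3, named after its values were seen, fell in both runs (-0.82 and -0.55), and CIRBP fell in run 1 (-0.65) with -0.47 in run 2 (adjusted p = 0.0542).

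Hormone and inflammation lists held genes that rose in both runs. Of 26 genes of the glucocorticoid list, 13 rose in run 1, 10 in run 2 and 8 in both, with medians of 0.99 and 1.11. Their median run difference was -0.02 (0.18 when scaled by total counts and -0.91 with the ribosomal RNA share as a covariate). Of 21 genes of the interleukin-1 axis, 9 rose in run 1 and 7 in run 2, all 7 in both. Among all genes tested, 13.4% rose in run 1, 7.98% in run 2 and 3.98% in both, and 5.31% fell in run 1 and 4.73% in run 2. IL1RN, the receptor antagonist, rose by 1.08 and 1.25, while IL1B, the cytokine itself, was at 0.65 and -0.49 with neither called. TSC22D3, the glucocorticoid-induced leucine zipper, rose in run 1 (1.17, adjusted p = 0.0197) and was at 0.96 in run 2 (adjusted p = 0.0789). G0S2, an inhibitor of fat breakdown, rose by 4.77 and 4.13 and was highest after heat stress in the animals with high IL1R2. With the animal as a block the lists held 1 and 3 called genes for glucocorticoids and 1 and 0 for interleukin-1 in runs 1 and 2, and TSC22D3, IL1RN and G0S2 were called in neither run. The ribosomal RNA share as a covariate left 13 and 0 called genes for glucocorticoids and 10 and 0 for interleukin-1. The median run difference of the interleukin-1 list was then -1.28, against 0.05 in the main fit. Of 17 clock genes, 1 rose and 1 fell in run 1 and 2 rose and 1 fell in run 2, and the clock genes PER1 (0.26 and 0.82) and DBP (-0.51 and -0.64) passed in neither run. Interferon-stimulated genes, of which 2 of 35 rose in run 1 and 0 in run 2, had medians of 0.06 (-0.23 when scaled by total counts) and -0.13.

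Called genes of glycolysis mostly rose and called genes of the ribosome fell, and their counts moved with the processing. Of 24 genes of glucose transport and glycolysis, 7 rose and 1 fell in run 1 and 14 rose in run 2, with 7 in both. Among all genes tested, 13.4% rose in run 1, 7.98% in run 2 and 3.98% in both. The medians of this list were 0.26 (-0.10 when scaled by total counts) and 0.84, and 0 run differences were called. LDHA and SLC2A3 were named after their values were seen. LDHA, which turns pyruvate into lactate, was at 0.57 in run 1 and rose by 1.56 in run 2 (adjusted p of the difference 0.273). The glucose transporter SLC2A3 rose by 1.52 and 1.68. With the block, 0 genes of this list were called in run 1 and 11 in run 2, with the ribosomal RNA share as a covariate 8 and 0, and without the run 2 controls of animals 16, 32 and 36 7 and 0. In that last fit, which had fewer controls, the run 2 median of the list was 0.72. Of 76 ribosomal protein genes, 4 fell in run 1, near the 5.31% of all genes, and 32 in run 2, against 4.73% of all genes. The medians of these ribosomal genes were -0.36 and -0.53. Again 0 differed between runs, and the median run difference of -0.19 was -0.05 when libraries were scaled by their total counts and 0.23 with the share of ribosomal RNA as a covariate. With the block, 0 of these genes were called in run 1 and 13 in run 2, and scaled by total counts 12 and 10. With the ribosomal RNA covariate the counts were 24 and 0, and without the 3 run 2 controls 4 and 0, so the run with more calls depended on these choices. The run 2 median without those controls was -0.36. Of 13 mitochondrial genome transcripts, ND5 and ND3 differed between runs, as given above.

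**Figure D5:**
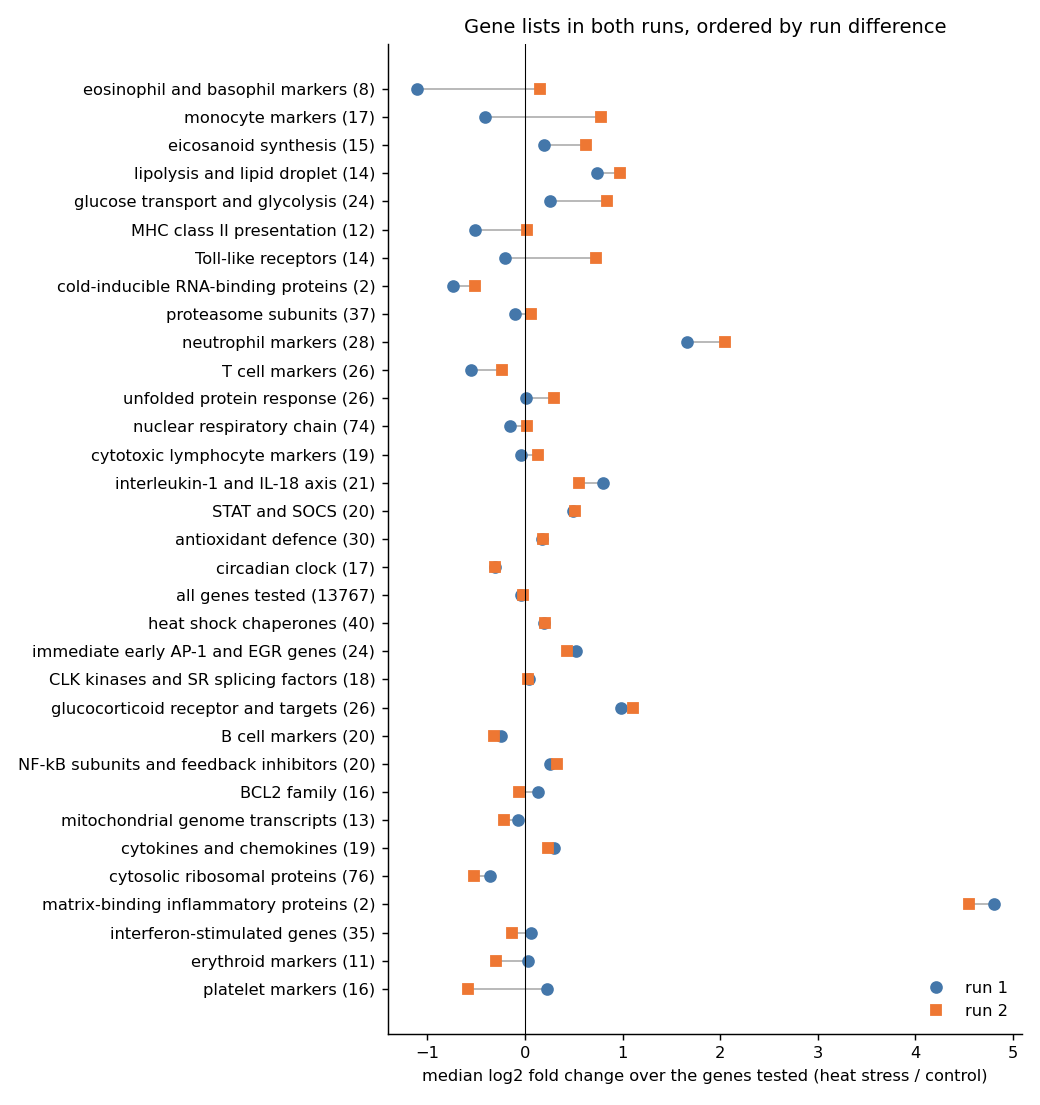
For each gene list, ordered by the run difference, the circle is the median log2 fold change of its tested genes in run 1 and the square that in run 2. Neutrophil, glucocorticoid and interleukin-1 lists were above 0 in both runs, monocyte markers moved from -0.40 in run 1 to 0.78 in run 2, and platelet markers from 0.23 (-0.03 when scaled by total counts) to -0.59.

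Neutrophil markers rose in both runs in the main fit: of 28 tested, 16 rose in run 1 (median 1.66), 14 in run 2 (median 2.05) and 12 in both, and 0 differed between runs. The shares of all genes that rose were 13.4% in run 1, 7.98% in run 2 and 3.98% in both. The chemokine receptor CXCR2 rose by 1.64 and 1.99, the gelatinase MMP9 by 2.23 and 2.67 and the calprotectin subunit S100A8 by 2.22 and 2.39. These rises came mostly from part of the animals. After heat stress in run 1, S100A8 lay between 7926 and 18276 CPM in animals 15, 18, 29 and 40. Animals 12, 19 and 41 lay between 1341 and 2378 CPM. In run 2 it lay between 12461 and 14897 CPM in animals 7, 16 and 36. Animals 3, 14 and 32 lay between 717 and 3020 CPM. Controls of both runs lay between 567 and 2702 CPM. CXCR2 and MMP9 were highest in the same animals. With the animal as a block, 1 of the 28 was called in run 1 and 6 in run 2. The ribosomal RNA share as a covariate gave 18 and 0 calls, with a median run difference of -1.55 against 0.20 in the main fit. Calls were 15 and 0 without the run 2 controls of animals 16, 32 and 36, a fit with fewer controls in which the run 2 median was 1.55. They were 0 and 14 without the run 1 heat stress libraries of animals 15, 18 and 29, and also with the share of reads outside genes as a covariate. The run 1 medians of these last 2 fits were 1.32 and 1.6. T cell markers had medians of -0.55 and -0.24, with 7 of 26 lower in run 1 (0 with the block) and 1 lower in run 2, against 5.31% and 4.73% of all genes, and CD3E of the T cell receptor complex was at -0.47 and -0.62 with neither called. B cell markers had medians of -0.24 and -0.31, with 1 of 20 lower in each run, and CD79A of the B cell receptor was at -0.04 and -0.66, called in neither. Cytotoxic lymphocyte markers had medians of -0.04 and 0.14.

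Monocyte markers had the higher run 2 response in each gene, although 0 of 17 passed the test of the run difference. All 17 run differences were above 0, against 7035 of 13767 over all genes tested, with a median of 1.06. With the animal as a block, 4 of the 17 were called, CD14, CSF1R and CTSB among them. CSF1R, the receptor of the macrophage growth factor (chr7:61380050-61411558), lay between 49.0 and 123 CPM in the control libraries (median 96.04) and between 30.8 and 132 CPM after heat stress (median 75.7) in run 1 and between 16.4 and 56.2 CPM in the control libraries (median 40.97) and between 33.7 and 150.4 CPM after heat stress (median 86.3) in run 2. The groups overlapped in both runs, but all 6 run 2 pairs rose. CSF1R was at -0.42 ± 0.32 in run 1 (adjusted p = 0.357) and rose by 1.20 ± 0.35 in run 2 (adjusted p = 0.0265), with a run difference of 1.62 ± 0.47 (adjusted p = 0.0658, or 0.00977 with the block). CD14, the lipopolysaccharide coreceptor, was at -0.19 and 0.96 (adjusted p of the difference 0.149, block 0.0349). The summed level of the 17 markers was 1686 to 3965 CPM in the run 1 controls, 2221 to 4036 CPM after heat stress in run 1, 762 to 2479 CPM in the run 2 controls and 1827 to 3903 CPM after heat stress in run 2, so the run 2 controls held the low values. The median run difference was 0.85 without the run 2 controls of animals 16, 32 and 36 and 0.36 with the share of reads outside genes as a covariate.

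Platelet markers went the other way, with 1 of 16 run differences above 0 and a median of -0.82, and 0 called. The median was -0.33 with the share of reads outside genes as a covariate. Their sum was 6844 to 11905 CPM in the run 2 controls and 5117 to 6378 CPM after heat stress in run 2, without overlap. In run 1 the sums were 3702 to 6854 CPM in the controls and 3423 to 8590 CPM after heat stress. Erythroid markers, of the red cells that lysis removes, were summed at 617 to 3745 CPM over the controls of both runs. Their 11 tested genes had medians of 0.04 (-0.30 when scaled by total counts) and -0.29, and 0 were called in either run. With the animal as a block, 0 were called in run 1 and 2 in run 2.

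RNA of the same 14 animals was also prepared with the Lexogen QuantSeq 3′ kit, in 26 libraries. This is a repeat of the library preparation and not of the animals, and the samples were not all the same. Run 1 held 7 controls and 8 heat stress libraries, and run 2 held 6 and 5. The Lexogen set lacked the control of animal 15 and the heat stress sample of animal 7. It held the control of animal 29 and the heat stress sample of animal 23, which the Takara set lacked. Counts of the 2 kits therefore differ in samples as well as in kit. Of 13484 genes tested there, 3 differed between runs (0.0222%), with 1060 at an unadjusted p under 0.05 and 85 called by DESeq2. Run 1 called 486 genes (3.60%) and run 2 called 0, with 1300 at an unadjusted p under 0.05 and 159 called by DESeq2. Of the 242 genes lower in run 2 with Takara, 235 were tested with Lexogen, where their medians were 0.15 in run 1 and -0.33 in run 2. For the 69 tested genes of the higher set the medians were -0.27 and 0.07. MAML3 was at 0.56 in run 1 and -0.89 in run 2 with Lexogen (adjusted p of the difference 0.215), LYST at 0.87 and -0.94 (0.181), and MBP at 1.54 and 0.51 (0.873). LIPA was at -1.36 and 0.46 (0.581). For platelet markers the median run difference was 0.24 with Lexogen, opposite in sign to Takara, and for monocyte markers it was 0.58. The Lexogen share of reads outside genes was 23.96% ± 1.76 and 27.8% ± 2.59 in run 1 and 27.8% ± 3.65 and 26.5% ± 3.17 in run 2, with a difference of the paired changes of -6.27 points (exact permutation p = 0.0215, adjusted 0.0322).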

How the data were processed

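Whole blood RNA of Holstein calves was sequenced from 3′ libraries. Per the labels and methods, the authors trimmed reads with Trimmomatic 0.39, checked them with FastQC 0.11.9 and MultiQC 1.14, aligned them with STAR 2.7.10b to the ARS-UCD2.0 genome and took STAR's counts of reads with a single alignment. The authors deposited raw counts, not normalised, as unstranded, sense and antisense columns for 32637 genes. The unstranded counts were used here, so reads of overlapping and antisense genes cannot be told apart. RefSeq's table for ARS-UCD2.0 gave a symbol for 30271 genes, and positions. The rows of totals for reads that were not on a gene stayed out of library sizes. Filtered reads per Takara library ranged from 12210387 to 34976807, and reads on genes from 5140595 to 20699030, without molecular identifiers.

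Genes were kept by filterByExpr, scaled by TMM and tested with edgeR 4.0.16 (R 4.3.3) in 4 groups without a block, the study having tested time alone, and adjusted by Benjamini-Hochberg (threshold 0.05). The run difference is run 2 minus run 1. Named genes were the 12 largest run differences in each direction among called genes with a mean of at least 10 CPM in a group, called list genes and a fixed set. Added to these were 8 genes in each direction called in both runs and 10 called oppositely. These were ranked by the smaller of the 2 absolute log2 fold changes. The comparison, the lists and the rule for named genes were chosen with earlier results of these data known. Library shares were compared by exact two-sided permutation tests over libraries or paired changes. The steps were tested on simulated data. Animal numbers pair the libraries: the same animal gave both times, and centred gene levels of its libraries correlated at 0.112 to 0.333 in all 12 pairs. Nothing in the labels gives a second draw of an animal at the same time, so each library of a group is a different animal. The main p-values measure the spread between animals within groups and leave out the pairing of the 2 times. The fit with the animal as a block uses that pairing. No libraries agreed within sampling noise. DESeq2 1.42.0, limma 3.58.1 and other settings were alternatives. A few genes that the rule names are not reported here. Sequences were not analysed here.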

Additional observations from a re-analysis of the deposited data

Results flagged for a closer look

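The heat response differed between runs by a test of the difference itself for the 35 named genes whose run difference was called, and each value is the log2 difference, run 2 minus run 1. It was above 0 for DEFB7 (2.34), LIPA (1.75), EPB41L3 (1.46), MTG2 (1.39), GALNT4 (1.38), SLC36A4 (1.34), CSTF1 (1.33), STING1 (1.28), C4H7orf25 (1.18), CCR4 (1.16), NEU1 (1.15) and CSTF2T (1.11). It was below 0 for INSYN2A (-4.29), MBP (-3.35), CAPNS2 (-2.77), CC2D2A (-2.72), DLST (-2.46), MAML2 (-2.40), RN18S1 (-2.27), DIAPH2 (-2.17), SLC15A3 (-2.15), MIR12002B (-2.14), STPG4 (-2.10), IMMP2L (-1.97), KDM5C (-1.95), FRMD8 (-1.92), MAML3 (-1.68), BLTP1 (-1.68) and LYST (-1.60). For the genes of the lists it was -2.23 for EGR1, -1.87 for STAT5B, -1.38 for CLOCK, -0.96 for ND5, -0.87 for SOCS4 and -0.84 for ND3. Of these 35 genes, 18 were called whichever of the 14 animals was left out. The other 17 were called in some of the 14 fits: NEU1, STING1 and ND3 in 4 each, DEFB7 in 2, CSTF2T and EGR1 in 3, CCR4 in 5, LIPA and SOCS4 in 6, CAPNS2 and MIR12002B in 7, FRMD8 in 9, EPB41L3 and STPG4 in 10, SLC36A4 in 11, DIAPH2 in 12 and GALNT4 in 13. Leaving out animal 32 ended 14 of the 35 calls, animal 15 ended 13, animals 12 and 14 ended 12 each, animals 16 and 29 ended 10 each, animals 18, 23 and 41 ended 9 each, animal 19 ended 8, animal 36 ended 5, animals 3 and 40 ended 4 each and animal 7 ended 3.

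A library lay far from the others of its group in 19 of 292 groups of values, where chance alone gives about 5%. The value is the gap to the nearest library as a share of the group's range of log2 levels. In the run 1 controls, animal 23 was highest for CCR4 (0.646), ADIRF (0.587) and CD3E (0.578), animal 12 for EPB41L3 (0.579) and animal 15 for MMP9 (0.662). After heat stress in run 1, animal 18 was highest for HSPA1A (0.658), HSPH1 (0.651) and the share of reads outside genes (0.582) and lowest for H1-12 (0.675). Animal 40 was lowest for C4H7orf25 (0.697), animal 19 for H2AC4 (0.735) and animal 12 for ND5 (0.623). In the run 2 controls, animal 14 was highest for HSP90AA1 (0.684) and lowest for CD79A (0.770), animal 36 was highest for CREG2 (0.667), animal 16 was lowest for KDM5C (0.730) and animal 7 for INSYN2A (0.734). After heat stress in run 2, animal 36 was lowest for C4H7orf25 (0.878), and animal 14 for CSTF1 (0.633).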

How the results depend on the processing

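The signs of the 35 named run differences held under every alternative run, and MAML2 was called in 27 of 27, but the counts moved. Main counts were 312 run differences (2.27% of genes tested), 2574 genes in run 1, 1750 in run 2 and 602 in both. With the animal as a replicate block, which uses the pairing of animals, they were 171 (1.24%), 764, 1122 and 78. DESeq2 gave 594 run differences (2.42% of all expressed genes), scaling by total counts 158 (1.15%, and 349 genes in both runs, with a median of all genes of -0.33 in run 1 and -0.15 in run 2), and no filter on low counts 146 (0.595%). limma's voom gave 804 genes in run 2 and 157 in both. With the library of animal 20 as heat stress, run 2 called 2782 genes, and with it as a control, run 1 called 1278, run 2 31 and both 0. The following alternatives were chosen after seeing the data. With the share of reads outside genes as a covariate there was 1 run difference (0.0073%), with 2 genes in run 1 and 2 in both. As this share moved with heat in opposite directions in the runs, that fit cannot separate it from the run difference. With the ribosomal RNA share, run 2 and both had 0. Without the run 2 controls of animals 16, 32 and 36 there were 71 run differences (0.485%), 5 genes in run 2 and 0 in both. Without the run 1 heat stress libraries of animals 15, 18 and 29 there were 111 run differences (0.786%), 35 genes in run 1 and 17 in both. These last 2 fits had smaller groups, so fewer calls do not by themselves mean smaller effects. Run 2 fitted alone called 931 genes. For Lexogen, DESeq2 called 85 run differences and no filter 0, against 3. The cause of these moves was not tested.

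Leaving out 1 animal at a time, run differences ranged from 0.847% (without animal 32) to 2.58% of genes tested, and numbered 152, 159, 199 and 201 without animals 15, 14, 16 and 41. Run 1 calls ranged from 504 (without 18) to 2996, and were 861, 946 and 1666 without 40, 15 and 23. Run 2 calls ranged from 73 (without 36) to 2276, and were 323 and 595 without 16 and 7. Calls in both runs ranged from 4 (without 36) to 816, and were 57, 108, 133, 202 and 243 without 16, 7, 18, 40 and 15. Reversed values were those of HSPH1 in run 2 with animal 20 as a control (-0.63, adjusted p = 0.632), and of IL1RN (-0.30, adjusted p = 0.939) and CXCR2 (-0.25, adjusted p = 0.975) in run 2 with the ribosomal RNA covariate. With a median standard error of 0.38, the interval of the run difference stayed within 2-fold for 35.8% of genes. Promoter motifs were not run.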

Other observations

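Histone genes, a group chosen after its values were seen, were often called down. Of 62 tested, 32 fell in run 1 and 13 in run 2, with 10 in both, and 3 rose in run 1 and 1 in run 2, while over all genes 731 of 13767 fell in run 1 and 651 in run 2. Their medians were -0.96 in run 1 and -0.70 in run 2. Among them, H4C6 changed by -1.73 and -0.42, H2BC7 by -2.16 and -1.09 and H3C12 by -1.43 and -0.78, called in run 1 and not in run 2. H2AC12 was the single histone gene whose runs differed, with 0.12 in run 1 and -1.25 in run 2 (adjusted p of the difference 0.0271). H2BC16 rose in both runs (0.77 and 0.84). Copies of these genes are near-identical, so reads may be split between them. The kit primes on poly(A) tails, so histone transcripts without such a tail would be missed, and their share was not tested.

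Structural RNA genes, also chosen after their values were seen, mostly had the lower response in run 2. Of 6 ribosomal RNA genes tested, 2 were called, RN18S1 of the cytosol and the mitochondrial gene KEH36_r01 (0.66 in run 1 and -1.07 in run 2, adjusted p of the difference 0.000353). Of 6 transfer RNA genes, 2 mitochondrial ones were called, KEH36_t03 (3.31 and -1.94, adjusted p 0.00537) and KEH36_t13 (3.25 and -2.40, adjusted p 0.0019).

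Several other immune and metabolic lists had 0 run differences called. Of 14 Toll-like receptor genes, 4 rose in run 1 and 6 in run 2, 3 of them in both, with medians of -0.21 and 0.73, and TLR4, which senses lipopolysaccharide, rose by 1.56 and 1.69. Over all genes 13.4% rose in run 1 and 7.98% in run 2. With the animal as a block, this list had 0 calls in run 1 (adjusted p = 0.0644 for TLR4) and 3 in run 2, and 2 run differences were called, CD14 (0.0349) and TICAM2 (0.0484). Of 14 genes of fat breakdown and lipid droplets, 5 rose in each run, with medians of 0.74 and 0.97, and with the block 1 was called in run 1 and 4 in run 2. MHC class II genes, which present antigen, had medians of -0.51 and 0.02 with 0 of 12 called in either run. The 8 eosinophil and basophil markers had medians of -1.11 and 0.15, and 0 were called. Of 37 proteasome genes, 3 fell in run 1 and 0 in run 2. Of 74 nuclear genes of the respiratory chain, 6 fell in run 1, and 2 rose and 3 fell in run 2. Over all genes 5.31% fell in run 1 and 4.73% in run 2, and these small counts were not compared with those shares by a test. Run differences were above 0 for 30 of 37 proteasome, 55 of 74 respiratory chain and 11 of 12 MHC class II genes. Over all genes tested this held for 7035 of 13767. With the share of reads outside genes as a covariate it held for 19, 32 and 4 genes of these lists. With the block, 0 proteasome genes were called in either run, and 0 respiratory chain genes in run 1 and 2 in run 2.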
